A study of Mus musculus with 12 samples.

Results

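The endocannabinoid genes described here are the cannabinoid receptor gene Cnr1 and the genes of 5 enzymes that make or break down its lipid ligands, Dagla, Daglb, Mgll, Napepld and Faah. They were taken by symbol from a count table of 24015 rows, where all 6 were present. All 6 passed the filter on low counts, with 15668 genes tested in all, and their counts in single libraries ran from 105 to 1834.

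The receptor CB1, encoded by Cnr1, sits mainly on axon terminals, where its activation lowers transmitter release. Its ligand 2-arachidonoylglycerol is cut from diacylglycerol by the diacylglycerol lipases, encoded by Dagla and Daglb, and travels backwards across the synapse until monoacylglycerol lipase, encoded by Mgll, hydrolyses it. The other ligand, anandamide, is released from N-acyl phosphatidylethanolamines by a phospholipase D, encoded by Napepld, among other routes, and is hydrolysed by fatty acid amide hydrolase, encoded by Faah. In the hippocampus CB1 is densest on terminals of interneurons that contain cholecystokinin and is present at lower density on glutamatergic terminals.

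Nuclear RNA was sequenced from hippocampal neuronal nuclei in 12 libraries with 3 replicates each of groups titled Basal, Early, Late and Reactivated. All mice carried ArcCreERT2 and a floxed-STOP eYFP reporter at the R26R locus, with the genotype given as +/+, so that Cre from the Arc gene marks neurons active near the drug dose. Neither age nor sex of the mice is given in these labels. All mice had 24 h of darkness, 1 dose of 4-hydroxytamoxifen 1 h before contextual fear conditioning, and then either collection 1.5 to 2 h later or 48 h more of darkness. Of the mice kept until day 5, part were collected without the cue and part met it again. Nuclei were fixed in 1% paraformaldehyde, stained for NeuN, Arc and GFP, and sorted to 10000 nuclei per condition from pools of 10 to 12 mice, so each replicate is a pool. The treatment label reads the same for all 12 libraries (foot shock and collection on day 0, no recall), so the groups rest on the titles alone, and no label ties a title to a sorting gate or a collection time.

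Libraries held 4838166 to 11120255 counts. The precursor of ribosomal RNA, Rn45s, took 4.72 to 12.2% of the counts for Basal, 6.23 to 12.9% for Early, 27.9 to 36.5% for Late and 18.8 to 27.7% for Reactivated, so its share moved with the groups. Arc, used in the sort, was at 145 ± 40.6 normalized counts for Basal, 435 ± 110 for Early, 593 ± 48.0 for Late and 660 ± 141 for Reactivated (SD, n = 3 each). Of the 5 neuronal markers, 2 rose in Early, 2 in Late and 3 in Reactivated against Basal, and none fell. These were 40.0%, 40.0% and 60.0% of the list, beside 6.03%, 49.1% and 39.4% of all genes tested that were called in either direction. Higher calls alone were 3.36%, 25.4% and 20.6% of all genes. Normalized counts are counts divided by the TMM effective library size, relative to its geometric mean over the 12 libraries.

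The windows before the start sites are shown for the 3 members with the largest changes, Cnr1, Daglb and Napepld. Each is the 250 bases before the first RefSeq start on GRCm38.p6, a later build than the mm9 named for the deposited counts. RefSeq windows were at hand for 5 of the 6 members, all but Dagla, with 8 start sites in all.
Cnr1, chr4:33924014-33924263, plus strand: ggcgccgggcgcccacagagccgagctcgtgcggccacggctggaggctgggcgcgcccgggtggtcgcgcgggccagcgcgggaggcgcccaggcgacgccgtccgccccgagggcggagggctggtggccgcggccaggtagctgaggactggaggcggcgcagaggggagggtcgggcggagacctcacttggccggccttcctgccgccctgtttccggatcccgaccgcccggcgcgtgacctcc
Daglb, chr5:143464243-143464492, plus strand: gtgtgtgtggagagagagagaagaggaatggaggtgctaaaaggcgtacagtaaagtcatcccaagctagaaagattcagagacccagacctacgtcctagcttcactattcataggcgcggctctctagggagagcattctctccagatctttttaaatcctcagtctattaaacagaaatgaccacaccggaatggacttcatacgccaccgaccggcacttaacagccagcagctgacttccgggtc
Napepld, chr5:21701623-21701872, minus strand: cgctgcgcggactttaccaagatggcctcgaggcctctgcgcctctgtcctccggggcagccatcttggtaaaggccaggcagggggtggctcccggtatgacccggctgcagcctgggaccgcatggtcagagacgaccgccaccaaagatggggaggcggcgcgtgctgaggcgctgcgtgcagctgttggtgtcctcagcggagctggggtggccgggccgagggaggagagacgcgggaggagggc
They are printed in lower case throughout because none of the 4 motifs searched, on both strands, was found in them. The motifs were a cAMP response element (TGACGTCA), an AP-1 site (TGANTCA), an EGR site (GCGNGGGCG) and an E-box (CACGTG), and none is contained in another. Of 32851 such windows in the RefSeq table, 1.55% held the first, 6.75% the second, 4.70% the third and 6.02% the fourth. Elsewhere among the 8 windows, an E-box began 49 bases before the second start of Cnr1 and 44 bases before the first of Mgll, and an EGR site 15 bases before the second of Mgll. Absence of these letters from a window says nothing about binding. The G and C content was 79.2% in the window of Cnr1, 69.6% in that of Napepld and 49.2% in that of Daglb.

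**Figure D1:**
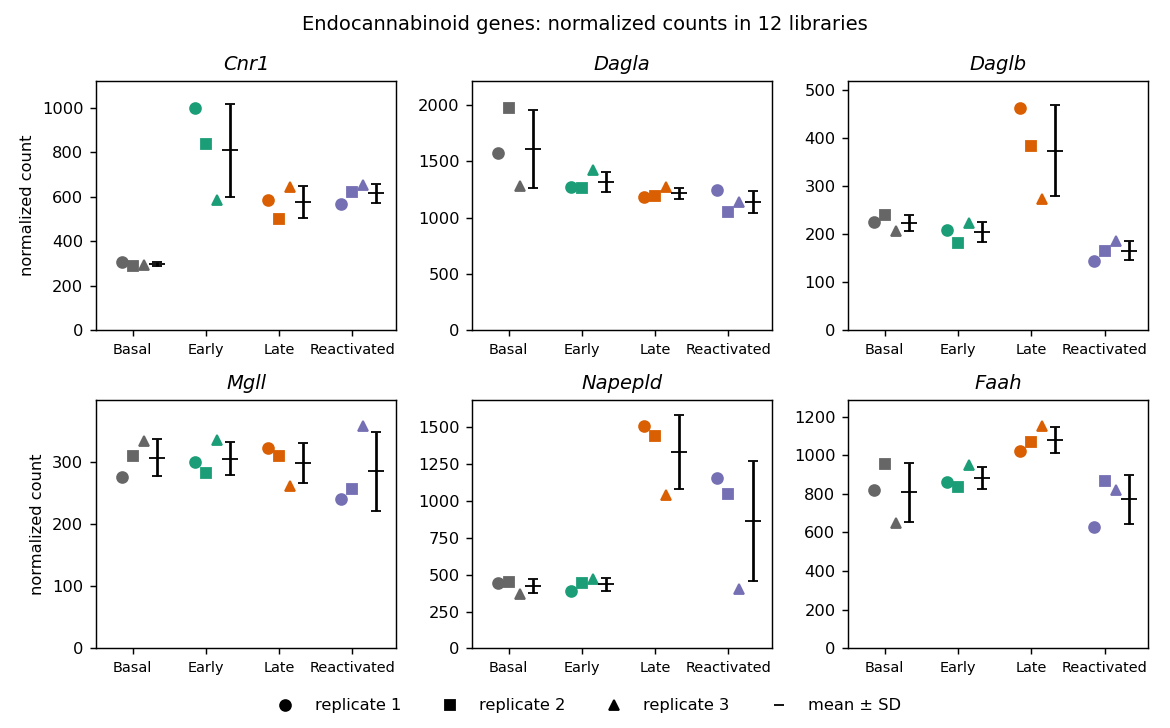
Normalized count (vertical axis, starting at 0) of each member in the 12 libraries by group, with 1 symbol shape per replicate number and the mean ± SD in black. Cnr1 was lowest in the 3 Basal libraries, Napepld was high in the 3 Late libraries and in Reactivated 1 and 2, and Daglb was high in Late.

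The receptor gene Cnr1 was higher in each of the other groups than in Basal. Its normalized counts were 307, 289.6 and 294 for Basal, 1001, 839.6 and 585 for Early, 587, 499 and 642.5 for Late, and 569, 620.4 and 654.5 for Reactivated. Every library of the other groups lay above all 3 Basal libraries, which lay close together, and the Early libraries were the most spread. Cnr1 rose 2.72-fold in Early (log2 fold change 1.44 ± 0.18 SE, adjusted p = 0.000217), 1.94-fold in Late (0.96 ± 0.18, adjusted p = 0.000488) and 2.07-fold in Reactivated (1.05 ± 0.18, adjusted p = 0.000557). These and all later adjusted p-values are from edgeR's quasi-likelihood test with Benjamini and Hochberg adjustment over all genes tested, and a gene that rose or fell passed 0.05.

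In the order Basal, Late, Reactivated, Early, the step from Basal to Late passed the test. Late and Reactivated did not differ beyond their spread (0.09 ± 0.17, 95% interval -0.28 to 0.46, adjusted p = 0.748). Reactivated was at -0.39 ± 0.17 against Early (adjusted p = 0.104). Cnr1 fell 1.40-fold from Early to Late (-0.49 ± 0.17, adjusted p = 0.0350), where the groups overlapped, since Early 3 lay among the Late values. That call ended without Early 1 (-0.31, adjusted p = 0.197), Early 2, Late 1 or Late 2, and the value was 0.37 ± 0.39 with the Rn45s share as a covariate (adjusted p 0.000293 to 0.775 over 26 alternatives).

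The Early result for Cnr1 passed in all 26 alternatives, with log2 fold changes of 1.26 to 1.67 and adjusted p-values of 4.68e-11 to 0.00348. The Late result passed in 24. It did not pass with every library scaled to 1 total (0.13, where the median of all genes was -0.87) or on the values as deposited (0.78). With the Rn45s share as a covariate Cnr1 stayed called, at 1.83 ± 0.40 in Late (adjusted p = 0.0429) and 1.55 ± 0.26 in Reactivated (adjusted p = 0.00661), within ranges of 8.33e-06 to 0.647 and 2.06e-06 to 0.0596 over the alternatives. The Reactivated call ended in 1 alternative, scaling to the same total (0.57, adjusted p = 0.0596).

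Because CB1 is dense on some interneurons, markers of these cells were read beside Cnr1. The summed normalized count of 10 general interneuron markers was 3408 to 4817 for Basal, 1876 to 3246 for Early, 2198 to 2460 for Late and 2539 to 2716 for Reactivated. That of 7 markers of cholecystokinin and related interneurons was 2111 to 2519, 1348 to 1675, 1304 to 1401 and 1122 to 1450. Both sums were lower in every library of the other groups than in any Basal library. Adarb2 made up most of the second sum, at 1588 ± 168 for Basal, 853 ± 25.3 for Early, 687 ± 35.7 for Late and 666 ± 86.8 for Reactivated (SD, n = 3 each). The sums do not describe the members of the lists evenly. Of the 10 general markers, 3 fell and 0 rose in Early, and their median log2 fold change was -0.51 beside 0.01 over all genes (at an unadjusted p under 0.05, 5 fell and 1 rose). Within the second list Vip fell 11.8-fold, Calb2 3.47-fold and Adarb2 1.86-fold in Early, and Cck, which pyramidal neurons also express, rose 2.39-fold (1.26 ± 0.29, adjusted p = 0.0185). Cck was at 233, 209.9 and 88.2 for Basal, 539, 439.5 and 275 for Early, 275, 280 and 267 for Late, and 388, 401 and 344 for Reactivated. In Late the general list had 0 higher and 5 lower (median -0.81), but the second list had 1 higher, Slc17a8, and 2 lower, Vip and Adarb2, with a median of 0.06. In Reactivated the general list had 1 higher, Pvalb (2.43, adjusted p = 0.000240), and 6 lower (median -0.65), and the second list 1 higher, Cck, and 3 lower (median -0.42). Of all genes tested, 6.03% were called in either direction in Early, 49.1% in Late and 39.4% in Reactivated. Lower calls alone were 2.66%, 23.6% and 18.8% of all genes. In Late the share called in either direction was near that of all genes for both lists. The part of interneurons in the result for Cnr1 was not tested.

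The groups also differed in markers of the principal cell types. All 8 granule cell markers fell in each of Early, Late and Reactivated against Basal, with sums of 7896 to 11240 for Basal, 1878 to 2248 for Early, 1447 to 1596 for Late and 1326 to 2999 for Reactivated. Of 7 CA1 markers, 6 rose in Early and 7 in Late and in Reactivated, with sums of 845 to 1264 in Basal and 2253 to 3973 in the other groups. Of 7 CA3 and CA2 markers, 5 rose in Early, 6 in Late and 6 in Reactivated, with medians of 1.50, 1.44 and 1.47, and their sums were 905.5 to 1218 for Basal, 2222 to 3607 for Early, 3525 to 4339 for Late and 2246 to 2641 for Reactivated. Of all genes tested, 6.03% passed in Early, 49.1% in Late and 39.4% in Reactivated. Fewer cells of a type and less RNA per cell cannot be told apart in such pooled nuclei. The sum of 7 astrocyte markers was 2588 to 5041 in Basal and 2045 to 7568 elsewhere, and that of 7 oligodendrocyte markers 1892 to 2413 in Basal and 1642 to 9952 elsewhere. The sum of 4 markers of oligodendrocyte precursors was 71.7 to 113 for Basal, 65.5 to 102 for Early, 44.8 to 59.5 for Late and 133 to 321 for Reactivated, where 2 of the 4 rose. The part of cell type makeup in the results for the members was not tested.

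The synthesis gene Dagla, whose enzyme makes most of the retrograde 2-arachidonoylglycerol of the adult brain, was lower in Late and Reactivated than in Basal. Its normalized counts were 1580, 1979 and 1286 for Basal, 1273, 1265 and 1420 for Early, 1182, 1196 and 1273 for Late, and 1243, 1048 and 1135 for Reactivated. Basal was the most spread group, with Basal 3 only just above the highest Late and Reactivated libraries. Dagla fell 1.33-fold in Late (log2 fold change -0.41 ± 0.15, adjusted p = 0.0373) and 1.41-fold in Reactivated (-0.50 ± 0.15, adjusted p = 0.0181). In Early it was at -0.29 ± 0.15 (95% interval -0.61 to 0.03, adjusted p = 0.366). The 3 comparisons share the Basal libraries.

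Among single libraries, Basal 2 weighed most on the result for Dagla. Without it the log2 fold change was -0.24 in Late (adjusted p = 0.219) and -0.33 in Reactivated (adjusted p = 0.114). The Late call also ended without Basal 1 or any single Late library, and the Reactivated call without Reactivated 2 (-0.44, adjusted p = 0.0637), within adjusted p-values of 2.77e-05 to 0.803 and 0.000542 to 0.416 over 26 alternatives. With the Rn45s share as a covariate neither passed, at -0.27 ± 0.40 in Late (adjusted p = 0.803) and -0.42 ± 0.27 in Reactivated (adjusted p = 0.416). Both calls also ended on the values as deposited (-0.55 and -0.50). Among the later groups Dagla was not called, at -0.12 ± 0.15 for Late against Early, -0.09 ± 0.15 for Reactivated against Late and -0.21 ± 0.15 for Reactivated against Early.

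The second synthesis gene, Daglb, encodes the related lipase best known from microglia and other immune cells, and it moved differently from Dagla. Its normalized counts were 224, 240.2 and 207 for Basal, 209, 181 and 222 for Early, 464, 384 and 274 for Late, and 145, 165 and 185 for Reactivated. The 3 Late libraries were the highest of the 12, and those of Reactivated lay under every Basal library. Daglb rose 1.67-fold in Late against Basal (log2 fold change 0.74 ± 0.18, adjusted p = 0.00421) and 1.83-fold against Early (0.87 ± 0.18, adjusted p = 0.00179). It fell 2.25-fold from Late to Reactivated (-1.17 ± 0.19, adjusted p = 0.000393). Against Basal, Reactivated was at -0.43 ± 0.19 (adjusted p = 0.0804), and Early at -0.13 ± 0.19 (adjusted p = 0.844).

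The Late rise of Daglb passed without each single library (0.56 to 0.93). It did not pass on the values as deposited (0.52) or with the Rn45s share as a covariate (0.33 ± 0.52). With libraries scaled to the same total Daglb was at -0.13, above the median of all genes at -0.87 (adjusted p 0.000738 to 0.817 over 26 alternatives). The fall from Late to Reactivated passed in 25 alternatives, with the Rn45s covariate among them (-0.99 ± 0.28, adjusted p = 0.0352), and ended on the values as deposited (-0.95, adjusted p = 0.0736, within 5.58e-07 to 0.0736). In GENCODE M21 the gene Rac1, a small GTPase of the cytoskeleton, overlaps Daglb on the opposite strand, and the strand setting of the counting is not known here. Rac1 was at 208 ± 28.0 normalized counts for Basal, 240.4 ± 27.9 for Early, 196 ± 26.3 for Late and 382 ± 54.9 for Reactivated (SD, n = 3 each), so it was high in Reactivated, where Daglb was lowest.

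Microglial markers were read beside Daglb. Of 7 listed, 5 were tested, and in Late Aif1, Cx3cr1 and Itgam rose while Csf1r and P2ry12 fell. All 5 tested were thus called in Late, beside 49.1% of all genes. The sum of the 7 was 657 to 796 for Basal, 627 to 773 for Early, 5664 to 9735 for Late and 817 to 2071 for Reactivated. Itgam at 3820 ± 645 and Cx3cr1 at 3841 ± 1404 made up most of the Late sum, and C1qa and Tmem119 were too low to test, at counts of at most 24 and 22. The part of these cells in the result for Daglb was not tested.

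The breakdown gene Mgll, whose enzyme ends most 2-arachidonoylglycerol signalling at terminals, did not pass in any comparison. Its normalized counts were 275, 309.8 and 334 for Basal, 299.6, 281.5 and 334 for Early, 322, 309 and 261.5 for Late, and 239.6, 257 and 357 for Reactivated. All 4 groups overlapped, and Reactivated 3 was the highest library and Reactivated 1 the lowest. Against Basal the log2 fold change of Mgll was -0.01 in Early (95% interval -0.36 to 0.35), -0.05 in Late (-0.40 to 0.31) and -0.10 in Reactivated (-0.46 to 0.25). Scaled to the same total, Mgll fell in Late (-0.89, adjusted p = 0.000603, where the median of all genes was -0.87) and in Reactivated (-0.57, adjusted p = 0.0198, median -0.46), within adjusted p-values whose highest were 0.935 and 0.995 over the alternatives.

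For anandamide, the synthesis gene Napepld had the largest change of the 6 members in Late. Its normalized counts were 444, 451 and 367 for Basal, 388, 446 and 472 for Early, 1507, 1440 and 1042 for Late, and 1154, 1045 and 399.6 for Reactivated. Basal and Early overlapped, all 3 Late libraries stood above them, and in Reactivated 2 libraries stood above them while Reactivated 3 lay within the Basal range. Napepld rose 3.16-fold in Late against Basal (log2 fold change 1.66 ± 0.29, adjusted p = 0.000313) and 3.05-fold against Early (1.61 ± 0.29, adjusted p = 0.000552). It rose 2.06-fold in Reactivated against Basal (1.04 ± 0.29, adjusted p = 0.0113) and 1.98-fold against Early (0.99 ± 0.29, adjusted p = 0.0220). Reactivated was at -0.62 ± 0.28 against Late (adjusted p = 0.133, and 0.0474 without Reactivated 1), and Early at 0.05 ± 0.29 against Basal (adjusted p = 0.968).

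The Late rise of Napepld passed without each single library (1.56 to 1.81). Without Reactivated 3 the Reactivated value was 1.39 (adjusted p = 0.000187), and without Reactivated 1 it was 0.78 and did not pass (adjusted p = 0.0505, within 0.000187 to 0.595 over 26 alternatives). The rise from Early to Reactivated ended without Early 1, Early 2, Reactivated 1 (0.73) or Reactivated 2 (0.83). The Rn45s share was 35.7%, 36.5% and 27.9% in Late and 27.7%, 18.8% and 20.7% in Reactivated. Its part in the result for Napepld cannot be told apart from the groups. With that share as a covariate the values of Napepld were 0.82 ± 0.77 in Late (adjusted p = 0.667, within 3.17e-07 to 0.667) and 0.54 ± 0.50 in Reactivated (adjusted p = 0.595), so that neither passed. In that fit 205 of all genes passed in Late, against 7686 without the covariate.

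The breakdown gene Faah was highest in Late. Its normalized counts were 817, 955 and 649 for Basal, 861, 835.5 and 947 for Early, 1020, 1066 and 1150 for Late, and 628, 865 and 819.7 for Reactivated. Every Late library lay above every library of the other groups, and the other 3 groups overlapped. Faah rose 1.34-fold in Late against Basal (log2 fold change 0.42 ± 0.16, adjusted p = 0.0416) and fell 1.40-fold from Late to Reactivated (-0.48 ± 0.16, adjusted p = 0.0422). Both calls were near the threshold. They ended in 14 of the 26 alternatives each, among them 7 and 8 of the 12 that leave out 1 library, with values of 0.28 to 0.56 and -0.57 to -0.36 in those 12. Scaled to the same total, Faah was at -0.43 in Late, above the median of all genes (adjusted p 0.0200 to 0.619 over the alternatives for Late against Basal and 0.0210 to 0.734 for Reactivated against Late).

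**Figure D2:**
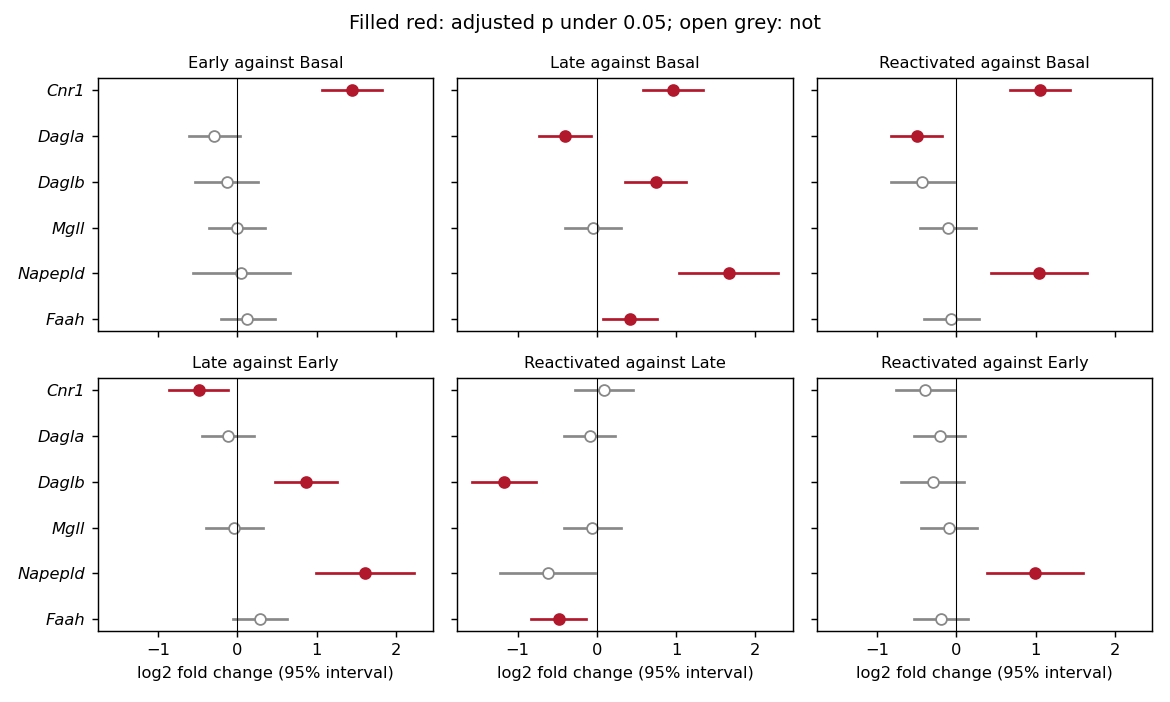
Log2 fold change (horizontal axis, with its 95% interval) of each member in the 6 pairs of groups, filled red where the adjusted p was under 0.05 and open grey where it was not. Cnr1 is the only member filled in Early against Basal, and Mgll is filled in no pair.

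Counted over the members, 1 of 6 passed in Early against Basal, where 6.03% of all genes tested passed (3.36% higher, 2.66% lower). In Late against Basal 5 of 6 passed, 4 higher and 1 lower, beside 49.1% of all genes (25.4% higher, 23.6% lower). In Reactivated against Basal 3 of 6 passed, 2 higher and 1 lower, beside 39.4% (20.6% higher, 18.8% lower). In Late against Early 3 of 6 passed, 2 higher and 1 lower, beside 42.3% (20.4% lower, the rest higher). From Late to Reactivated 2 of 6 passed, both lower, beside 22.6% (10.3% higher, 12.3% lower), and from Early to Reactivated 1 of 6, higher, beside 26.2% (13.5% higher, 12.7% lower). Groups did not overlap for 1 of 6 members in Early against Basal, beside 23.4% of all genes, for 5 in Late against Basal, beside 62.5%, and for 3 in Reactivated against Basal, beside 45.8%. They did not overlap for 3 members in Late against Early, beside 59.9%, for 2 in Reactivated against Late, beside 39.7%, and for 1 in Reactivated against Early, beside 39.1%. In the test of any difference among the 4 groups Cnr1, Dagla, Daglb and Napepld passed, 4 of 6 beside 58.6%, and Faah (adjusted p = 0.0601) and Mgll (adjusted p = 0.929) did not. The median log2 fold change of the 6 members was 0.02 in Early, 0.58 in Late and -0.08 in Reactivated against Basal, beside 0.01, -0.03 and 0.02 over all genes.

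Ratios of members within a library do not depend on how libraries are scaled, and they are given with no test. Dagla counts were 7.05, 8.24 and 6.22 times those of Daglb for Basal, 6.10, 6.97 and 6.39 times for Early, 2.55, 3.11 and 4.65 times for Late, and 8.60, 6.34 and 6.14 times for Reactivated. All 3 Late ratios lay under every other library. Napepld counts were 0.544, 0.472 and 0.566 times those of Faah for Basal, 0.451, 0.534 and 0.498 times for Early, 1.48, 1.35 and 0.907 times for Late, and 1.84, 1.21 and 0.488 times for Reactivated. The 3 Late libraries and Reactivated 1 and 2 stood above all of Basal and Early, and Reactivated 3 did not. The mean log2 ratio of Napepld to Faah in Reactivated was 0.04 ± 0.98 (SD, n = 3), and it was 0.58 without Reactivated 3 and -0.38 without Reactivated 1. The log2 ratio of Dagla to Mgll was 2.38 ± 0.38 for Basal, 2.11 ± 0.05 for Early, 2.04 ± 0.22 for Late and 2.02 ± 0.35 for Reactivated (SD, n = 3 each), and the groups overlapped. These counts are not corrected for gene length, so a ratio compares libraries and not the amounts of the transcripts.

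**Figure D3:**
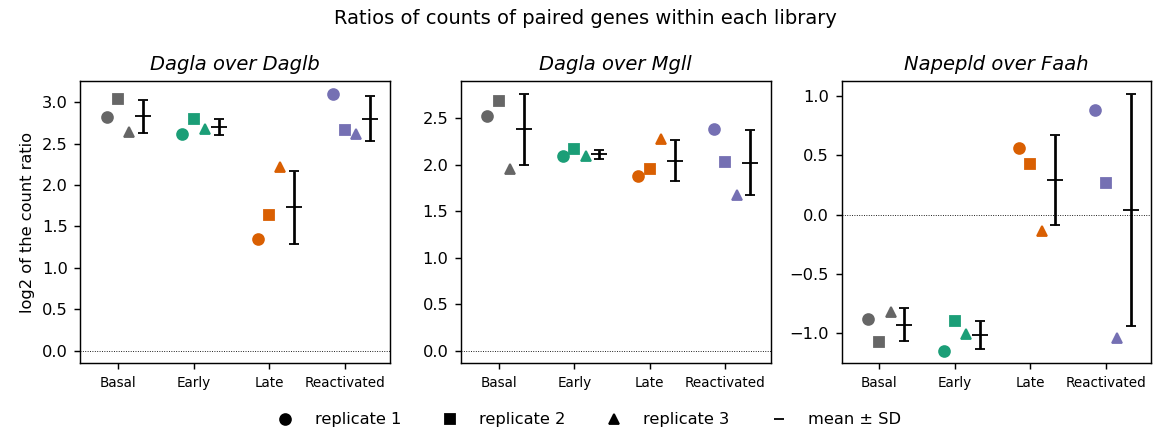
Log2 of the ratio of raw counts of paired members (vertical axis) in the 12 libraries by group, with 1 symbol shape per replicate number, the mean ± SD in black and a dotted line at equal counts. Dagla over Daglb is lowest in the 3 Late libraries, and Napepld over Faah is above 0 in Late 1 and 2 and in Reactivated 1 and 2.

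On log2 CPM (counts scaled to library size, on a log scale) over the 12 libraries, the highest Pearson r was 0.71 between a pair of members, Daglb and Faah, and the lowest was -0.61 between Cnr1 and Dagla. These are descriptions over 12 libraries that share 4 groups. By the same measure the genes most like each member were read from 10273 genes with a mean normalized count of at least 50. Since they were picked by likeness over these same libraries, the patterns they share with a member follow from the choice. For Cnr1 they were Prkcb, a protein kinase C (r = 0.974), St8sia5, a sialyltransferase (0.964), and Rasgrp1, a Ras activator that binds diacylglycerol (0.939). Prkcb had means of 1880 for Basal, 4250 for Early, 3000 for Late and 3380 for Reactivated, the same order of groups as Cnr1. For Dagla they were Cdon (0.934), Sntb2 (0.921) and Slc30a3, the zinc transporter of synaptic vesicles (0.891), with log2 fold changes of -1.37, -1.18 and -1.42 in Late against Basal.

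For Daglb the most alike were Dhx36, a helicase (0.971), Edn1, endothelin (0.960), and Kdsr, of sphingolipid synthesis (0.960). Edn1 was at a mean of 21.5 for Basal, 14.1 for Early, 245 for Late and 6.37 for Reactivated, so it entered the search through Late alone. For Napepld they were Acot11, a thioesterase (0.980), Pydc3 (0.979) and Zfp92 (0.976), with log2 fold changes of 1.69, 3.02 and 2.27 in Late against Basal. For Faah they were Lamtor4 (0.908), Bcl2l15 (0.878) and Fig4 (0.865), and for Mgll Ciart (0.868), Cenpt (0.860) and Abcb4 (0.827). Bcl2l15 also entered through Late alone, at a mean of 33.9 for Basal, 39.7 for Early, 110 for Late and 26.5 for Reactivated.

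A further 52 genes of the pathway were read around the members, grouped by role, and 48 of them were tested. The 4 others, Gpr119, Trpv1, Hrasls5 and Fabp7, had counts of at most 13 in any library. In Early 7 rose and 5 fell, 25.0% of the 48 beside 6.03% of all genes. In Late 13 rose and 13 fell, 54.2% beside 49.1%, and in Reactivated 15 rose and 11 fell, 54.2% beside 39.4%. The median log2 fold change of the 48 was 0.06 in Early, 0.02 in Late and 0.10 in Reactivated.

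Genes that act before the diacylglycerol lipases, namely the Gq-coupled receptors, their G proteins, phospholipase C and the Homer scaffolds, were higher or not called. Of 13 tested, 3 rose in Early, 6 in Late and 7 in Reactivated against Basal, and none fell in these 3 comparisons by edgeR (at an unadjusted p under 0.05, 2 fell in Early, 1 in Late and 2 in Reactivated). These were 23.1%, 46.2% and 53.8% of the list, beside 6.03%, 49.1% and 39.4% of all genes called in either direction. The Late share was near that of all genes by this measure. Higher calls alone were 3.36%, 25.4% and 20.6% of all genes. The medians of the 13 were 0.35, 1.02 and 0.74. Of the calls against Basal of the other pathway genes named here and below, 8 in Early, 13 in Late and 14 in Reactivated, those that still passed with the Rn45s covariate numbered 8, 0 and 2. With libraries scaled to the same total 6, 11 and 11 still passed, and on the values as deposited 2, 6 and 7. Chrm3, a muscarinic receptor, was at 145, 120 and 236 for Basal, 449, 543 and 599 for Early, 973, 954 and 684.5 for Late, and 571, 529.7 and 634 for Reactivated. No Basal library of Chrm3 reached any other, and it rose 3.14-fold in Early (log2 fold change 1.65 ± 0.22, adjusted p = 0.000433), 5.15-fold in Late (2.36 ± 0.23) and 3.42-fold in Reactivated (1.78 ± 0.23).

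Homer1, a postsynaptic scaffold that binds Dagla, rose 1.69-fold in Early (0.76 ± 0.16, adjusted p = 0.00880) and 1.67-fold in Reactivated (0.74 ± 0.16, adjusted p = 0.00245), and in Late it was at 0.00 ± 0.16. It fell from Early to Late (-0.75, adjusted p = 0.00165) and rose from Late to Reactivated (0.73, adjusted p = 0.00366). The Early call of Homer1 ended without Basal 2 (0.64) or Early 1 (0.65). Counts are given per gene symbol, so transcript forms of Homer1 were not separated. Gnaq, a G protein subunit that activates phospholipase C, rose 2.08-fold in Late (1.05 ± 0.15) and 1.71-fold in Reactivated (0.78 ± 0.14). Neither call of Gnaq passed with libraries scaled to the same total (0.20 and 0.29) or with the Rn45s covariate (0.37, adjusted p = 0.641, and 0.39, adjusted p = 0.324). With the same total Homer1 also did not pass in Early (0.68) or Reactivated (0.26). With the covariate Chrm3 was at 1.04 in Late and did not pass.

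Of the 14 genes that act after CB1 or end its signal, 3 rose and 4 fell in Early against Basal. In Late 6 rose and 5 fell, and in Reactivated 6 rose and 4 fell. The calls made up 7 of 14 in Early, 78.6% of the list in Late and 71.4% in Reactivated, beside 6.03%, 49.1% and 39.4% of all genes. Gnai1, an inhibitory G protein subunit, rose 1.57-fold in Early, 2.54-fold in Late and 2.64-fold in Reactivated (1.40 ± 0.16, adjusted p = 4.76e-05). Kcnj6, a subunit of the potassium channel opened by CB1, fell 1.52-fold, 1.63-fold and 1.86-fold, and Adcy1, an adenylyl cyclase, fell 1.63-fold, 1.67-fold and 1.37-fold. Kcnj9, another subunit of that channel, fell in Early (-0.60 ± 0.12, adjusted p = 0.00757), and was at 0.07 in Late and 0.14 in Reactivated. In Early the call of Gnai1 ended with libraries scaled to the same total (0.57) and without Basal 1, Basal 2, Early 1 or Early 3 (0.56 to 0.64), that of Kcnj6 without Basal 1, Basal 2, Early 2 or Early 3 (-0.58 to -0.48) and that of Kcnj9 without Early 1 (-0.53). In Reactivated the call of Adcy1 ended without Basal 2 (-0.37).

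Of the other genes that degrade or oxidise 2-arachidonoylglycerol, Ptgs2, the cyclooxygenase 2 gene, rose 2.57-fold in Early (1.36 ± 0.25, adjusted p = 0.00410). It was at 47.9, 78.6 and 57.4 for Basal, 142, 152 and 179 for Early, 51.6, 68.7 and 83.1 for Late, and 41.3, 57.2 and 71.9 for Reactivated, so only the Early libraries stood apart. Abhd6, a postsynaptic hydrolase, fell 1.95-fold in Late (-0.96 ± 0.19, adjusted p = 0.000681), and rose from Late to Reactivated (0.62, adjusted p = 0.0273), where the call ended without Late 1 (0.64), Late 2 (0.46) or Reactivated 1 (0.48). Ddhd2, a brain lipase, was counted in this list, though breakdown of 2-arachidonoylglycerol by its enzyme is not established here. It fell 1.53-fold in Late and 1.94-fold in Reactivated. Abhd12, the remaining gene of this list, was not called against Basal, at 0.04, 0.03 and 0.31. In Early the list had 1 of 4 higher and 0 lower, in Late 0 and 2, and in Reactivated 0 and 1 (6.03%, 49.1% and 39.4% of all genes were called). Ddhd2 was among the 2 lower in Late and was the 1 lower in Reactivated. With the Rn45s covariate Ddhd2 was at -0.06 in Late (adjusted p = 0.949).

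Of 9 tested genes of other routes to anandamide, 1 fell in Early, 4 in Late and 4 in Reactivated against Basal, and none rose in these comparisons by edgeR, nor at an unadjusted p under 0.05. The 4 were 44.4% of the list, beside 49.1% and 39.4% of all genes called in either direction in Late and Reactivated. Lower calls alone were 23.6% and 18.8% of all genes. Pla2g4e, a calcium-dependent N-acyltransferase that makes the substrate of the Napepld enzyme, fell 2.01-fold in Early (-1.01 ± 0.23, adjusted p = 0.0171), 1.91-fold in Late and 1.80-fold in Reactivated. The Early call of Pla2g4e ended without Basal 3 (-0.78), Early 1 (-0.93) or Early 2 (-0.95). Gde1, a glycerophosphodiesterase, fell 1.43-fold in Late (-0.51 ± 0.18, adjusted p = 0.0298), a call that ended without Basal 1, Basal 2 or any single Late library (-0.54 to -0.44), and Gde1 was at 0.27 with the Rn45s covariate. Gdpd1 fell 1.82-fold in Reactivated (-0.86 ± 0.23, adjusted p = 0.00939). Ptpn22, a phosphatase of immune cells, fell in Late (-2.54) and Reactivated (-2.30), where the calls ended without Late 3 (-2.16) and without Basal 1 (-2.14) or Reactivated 2 (-1.77). Reactivated counts of Ptpn22 were 1, 1 and 12, and without Reactivated 3 its value was -4.26. Among carriers, Fabp5, which binds anandamide in the cytosol, was at 51.0 ± 9.73 for Basal, 83.4 ± 17.7 for Early, 104 ± 3.85 for Late and 141 ± 54.5 for Reactivated (SD, n = 3 each), and rose 2.03-fold in Late and 2.70-fold in Reactivated. The Late call of Fabp5 ended with libraries scaled to the same total (0.20), and with the Rn45s covariate Fabp5 was at -0.36 in Late (adjusted p = 0.820) and 0.61 in Reactivated (adjusted p = 0.413). Fabp3, a related carrier, rose in Reactivated (1.17), a call that ended with the same total (0.75) and without Basal 1, Basal 2, Reactivated 2 or Reactivated 3 (0.78 to 1.19), and Naaa, an anandamide hydrolase of lysosomes, was not called against Basal.

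Of 5 tested genes for other receptors and for partners of CB1, none rose against Basal by edgeR, 0 were called in Early (1 was higher at an unadjusted p under 0.05), and 2 fell in each of Late and Reactivated. That is 40.0% of the list in both, beside 49.1% and 39.4% of all genes called in either direction. Lower calls alone were 23.6% and 18.8% of all genes. The orphan receptor gene Gpr18 was at 94.6, 89.8 and 94.0 for Basal, 120, 108 and 118 for Early, 44.4, 58.1 and 43.9 for Late, and 35.8, 36.1 and 40.9 for Reactivated. Late and Reactivated lay under all Basal and Early libraries of Gpr18, and it fell 1.91-fold in Late (-0.93 ± 0.20, adjusted p = 0.00147) and 2.46-fold in Reactivated (-1.30 ± 0.20, adjusted p = 0.000333). Cnr2, the cannabinoid receptor of immune cells, fell 2.67-fold in Reactivated (-1.42 ± 0.38, adjusted p = 0.0100), a call that ended without Basal 2 (-1.14), and Cnr2 was at 0.15 with the Rn45s covariate. Sgip1, whose protein holds CB1 at the cell surface, fell 1.49-fold in Late (-0.57 ± 0.12, adjusted p = 0.00128). Cnrip1, whose protein binds the tail of CB1, was not called against Basal and fell from Early to Late (-0.69).

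**Figure D4:**
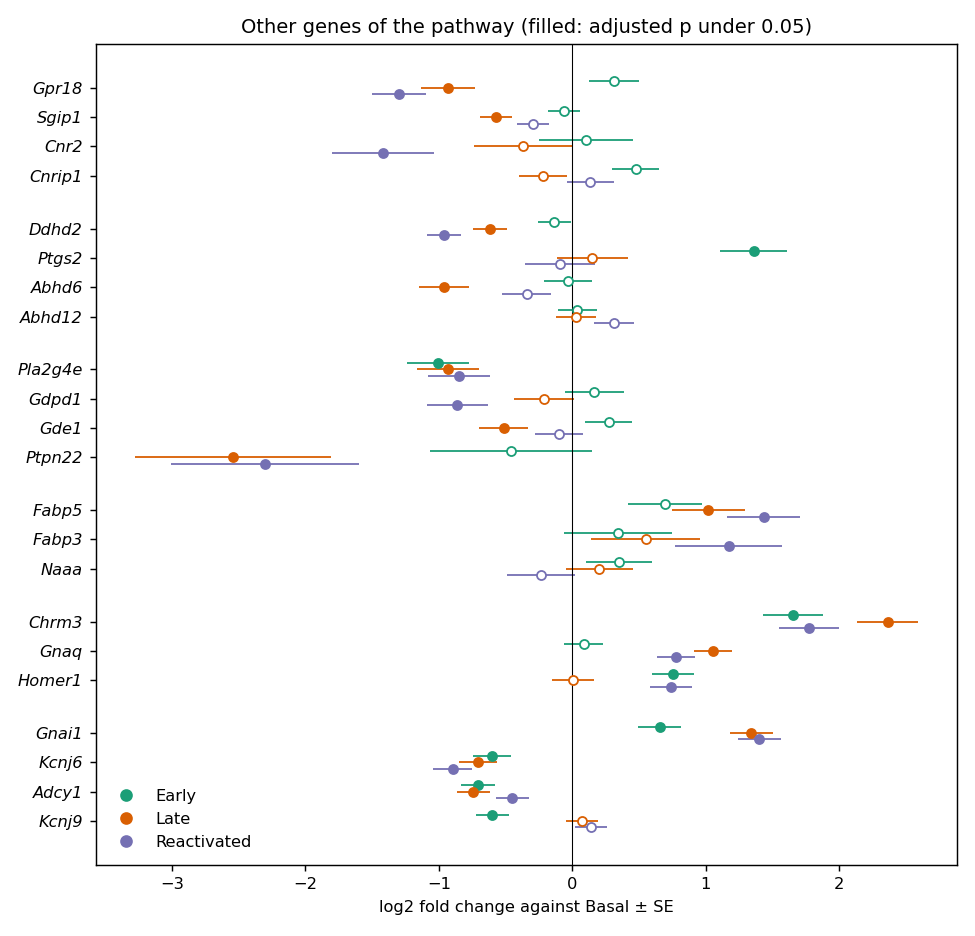
Log2 fold change against Basal ± SE (horizontal axis) of the pathway genes named, grouped from top to bottom as receptors and CB1 partners, 2-arachidonoylglycerol breakdown, anandamide synthesis, anandamide breakdown and carriers, genes before the diacylglycerol lipases, and CB1 effectors, with filled symbols where the adjusted p was under 0.05. Ptgs2 is filled in Early alone, Chrm3 lies to the right in all 3 groups, and Pla2g4e lies to the left in all 3.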

How the data were processed

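Nuclear RNA of sorted hippocampal nuclei was measured in 12 libraries, 3 each titled Basal, Early, Late and Reactivated. The deposited table gives 1 count per gene symbol and library. Its name calls the values normalized, but they were whole numbers with no gap between 1 and 30, unequal library totals and median-of-ratios size factors of 0.734 to 1.46, so they were treated as raw counts. Per the submitters' processing notes, Bowtie2 2.0, Cufflinks 2.2, DESeq2 and the build mm9 were used; the counting tool, the annotation and the strand setting are not known here. Library kits differ between label fields (a stranded total RNA kit, 15 PCR cycles; SmartSeq2).

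Genes reaching 10 counts in 3 or more libraries were tested with edgeR 4.0.16 in R 4.3.3 (quasi-likelihood, TMM scaling, 4 group means fitted to all 12 libraries together, two-sided, Benjamini and Hochberg adjustment over 15668 genes, threshold 0.05), for the 6 pairs of groups and for any difference. Log2 fold changes are given ± SE with 95% intervals, and log2 CPM uses a prior count of 2. The precision is set by 3 libraries per group and by the depth, 4838166 to 11120255 counts per library. The 27 rows whose symbol had become a date (at most 0.147% of a library) were kept and not named. The code was tested on simulated data.

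All 6 members are named. From each list of other pathway genes, up to 4 were named by the smallest p for any difference; other genes were named as markers of cell types the sort could hold, or as the 3 most like each member, leaving out unnamed gene models and small RNAs. One gene that this rule names enters the counts and is not reported here. Rac1 was looked up after the values were seen. The members and lists were chosen with earlier results of these data known. Alternatives covered scaling, tool (DESeq2 1.42.0, limma 3.58.1 with pseudocounts of 1, 0.5 and 5), low counts, the Rn45s share, the replicate number as a block, and each library left out. The replicate numbers were checked as pairs: same-numbered Basal and Early libraries deviated together (r = 0.331, 0.143 and 0.484), so the numbers were taken to pair these 2 groups, from the data alone. Basal 3 and Early 3 also had the highest Rn45s shares of their groups (12.2% and 12.9%), so pairing and a shared library trait cannot be told apart. The p-values in the Results are from the fit without pairing, and the block is an alternative. Promoter windows are from RefSeq, on GRCm38.p6.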

Additional observations from a re-analysis of the deposited data

How the results depend on the processing

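Each of the 36 member results (6 members in 6 pairs of groups) was recomputed under 26 alternatives. Of 936 values, 816 kept direction and side of the threshold, 68 no longer passed, 14 newly passed and 38 changed sign, mostly of values near 0 that did not pass. Of 1531 values for the 59 calls of other pathway genes, 1375 kept both, 147 no longer passed and 9 changed sign.

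The count of members that passed in Early against Basal was 1 in every alternative. In Late against Basal it was 3 with libraries scaled to the same total, 1 on the values as deposited, 1 with the Rn45s covariate and 3 to 5 without single libraries. In Reactivated against Basal it was 1 on the values as deposited, 1 with the covariate and 2 to 4 without single libraries, and in Late against Early 1, 0 and 2 to 3. With the same total the members called also changed. In Late against Basal Cnr1 (0.13), Daglb (-0.13) and Faah (-0.43) no longer passed, while Mgll (-0.89) newly passed as lower. In Late against Early Daglb (0.097) no longer passed, while Dagla (-0.86) and Mgll (-0.80) newly passed as lower. In Reactivated against Basal Cnr1 (0.57) and Napepld (0.52) no longer passed. There Daglb (-0.92), Mgll (-0.57) and Faah (-0.55) newly passed as lower beside Dagla (-1.01). In Reactivated against Late the count of members that passed was 1 with the same total, upper quartile scaling or no filter. It was also 1 with Rn45s and Lars2 removed or the 2 groups alone. On the values as deposited it was 0, and without single libraries 1 to 2. In Reactivated against Early it was 4 with the same total, 0 on the values as deposited, with the covariate or with the 2 groups alone, and 0 to 2 without single libraries. For any difference it was 2 on the values as deposited.

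The same total moved the median of all genes to -0.87 in Late and -0.46 in Reactivated against Basal, -0.78 in Late and -0.37 in Reactivated against Early and 0.38 in Reactivated against Late. The share of higher calls moved with it, with 1401 higher and 9062 lower in Late against Basal, and 3016 and 5114 with upper quartile scaling, beside 3981 and 3705.

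Signs changed as follows; the cause was not tested. With the same total: Napepld -0.052 in Early against Basal, Daglb -0.13 and Faah -0.43 in Late against Basal, Faah -0.45, Chrm3 -0.054, Gnai1 -0.053 and Kcnj9 -0.083 in Late against Early, Dagla 0.26 and Mgll 0.32 in Reactivated against Late. On the values as deposited: Daglb 0.11 and Mgll 0.20 in Early against Basal, Faah -0.13 in Late against Early, Dagla 0.052 and Mgll 0.15 in Reactivated against Late. With upper quartile scaling: Dagla 0.027 and Mgll 0.066 in Reactivated against Late. With no filter: Mgll 0.0065 in Early against Basal. With the covariate: Gde1 0.27 and Fabp5 -0.36 in Late against Basal, Faah 0.36 and Cnr2 0.15 in Reactivated against Basal, Cnr1 0.37, Dagla 0.0078, Ddhd2 0.055 and Chrm3 -0.58 in Late against Early, Cnr1 -0.28 and Mgll 0.10 in Reactivated against Late, and Cnr1 0.093, Faah 0.18 and Fabp5 -0.034 in Reactivated against Early.

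Without single libraries the ranges of values that changed sign were Mgll -0.076 to 0.061, Faah -0.0088 to 0.27, Napepld -0.039 to 0.13 in Early against Basal, Mgll -0.15 to 0.044 in Late against Basal, Mgll -0.30 to 0.0017, Faah -0.20 to 0.075 in Reactivated against Basal, Mgll -0.097 to 0.051 in Late against Early, Cnr1 -0.0018 to 0.18, Mgll -0.26 to 0.047 in Reactivated against Late, Mgll -0.30 to 0.0097 in Reactivated against Early.

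With the replicate block, 1 member passed in Early against Basal, 4 in Late and 3 in Reactivated against Basal, and 3 for any difference; Dagla in Late lost its call (-0.40, adjusted p = 0.0538). Across all genes the block gave 928 calls in Early, where the numbers were taken to pair the groups, and it changed no member's call there. The block was fitted over all 12 libraries, with Late and Reactivated included. It is therefore not a paired fit of Basal and Early alone, which was not run. With the block Cnr1 was at 1.44 ± 0.18 in Early (adjusted p = 0.000573). For the other pairs of groups the numbers were taken as names only: over all groups 4 of 18 same-numbered pairs, 3 of them Basal with Early, deviated together by over 0.1 (r -0.217 to 0.484), and 7 of 12 libraries correlated best with their own number. Depth and 3 libraries per group limit what can be called.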
